A study of Mus musculus with 2 samples.

Results

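The genes described are 10 transcription factor genes of blood cells that act in lineages other than the red cell: Spi1, Cebpa, Irf8, Ikzf1, Runx1, Runx3, Etv6, Erg, Pax5 and Ebf1. They were chosen by name, and all 10 were matched by symbol among the 21938 protein-coding genes of the GENCODE M21 annotation of the mouse genome (mm10). The study mapped open chromatin in primary erythroblasts, which are nucleated cells that mature into red cells, with ATAC-seq, in which a transposase cuts accessible DNA. There was 1 group of 2 libraries, each from 50000 cells. The mice were male, of strain C57BL/6J and 5 to 6 weeks old, with no treatment or genotype named and no other cell type for comparison. The 2 libraries come from separate biosamples with a donor identifier in common, and the sources used here do not say whether they share animals. The data are lists of peaks, which are intervals of enriched signal, and the lists hold no read counts, so the depth is unknown.

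Blood cell fates are set in part by transcription factors that favour one programme and hold back another. PU.1, the product of Spi1, and GATA1, the main erythroid factor, bind each other and inhibit each other's activity, and PU.1 has to fall for red cells to mature. C/EBPα and IRF8 direct granulocytes, monocytes and dendritic cells, EBF1 and PAX5 specify and maintain B cells, and Ikaros (Ikzf1) and RUNX3 act in lymphocytes. RUNX1, ETV6 and ERG are factors of stem cells and megakaryocytes, the platelet precursors that share a progenitor with the erythroid line.

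A promoter was the region within 1 kb of any annotated start site of the gene. It was called open when the list thresholded for reproducibility held a peak there in both replicates. It was called relaxed only when the longer, less strict list of both replicates held a peak and the thresholded lists did not. Another list, made from both replicates together, is here called the combined list, and closed means that none of these lists, as analysed here, holds a promoter peak. The thresholded lists hold 17777 and 18837 peaks for replicates 1 and 2, the less strict lists 31830 and 33552, and the combined list 43051. Erythroblast identity was checked against marker genes: 11 of 12 erythroblast markers had an open promoter, and Alas2, the enzyme of heme synthesis, was relaxed only. No promoter was open among markers of macrophages (5), stem and progenitor cells (6), granulocytes and monocytes (7), B cells (5) or T and NK cells (6). In the stem cell list Hlf had a less strict peak in replicate 2 only, at 4.55. Of 5 megakaryocyte markers Itga2b was open and Gp9 was relaxed only.

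Of the 10 genes, Runx1 and Ikzf1 had an open promoter, Ebf1 was relaxed only, and Spi1, Cebpa, Irf8, Erg and Pax5 were closed. Etv6 had a less strict promoter peak in replicate 2 alone, and Runx3 had one in the combined list alone. Among all protein-coding genes 41.4% were open, 3.15% relaxed only in both replicates and 48.5% closed, so the 5 closed genes of 10 lie near the share of all genes and the 2 open genes are below it. With 10 genes these counts are a description and were not tested. The genes have 52 annotated start sites in all, of which 9 had a thresholded peak of both replicates within 1 kb, 4 of the 5 of Ikzf1 and 5 of the 7 of Runx1, beside 35.8% of the start sites of all protein-coding genes.

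**Figure D1:**
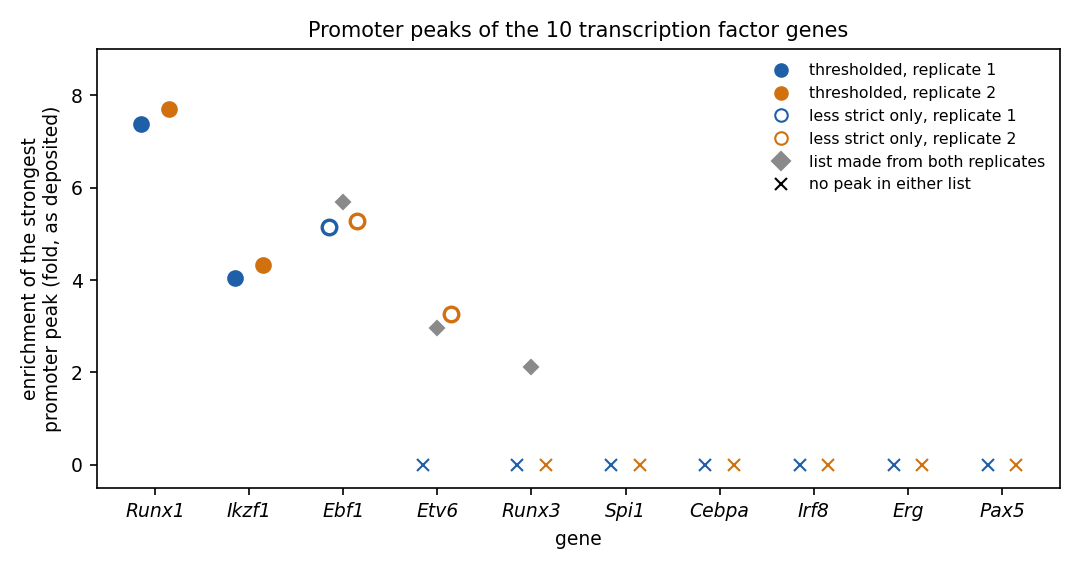
Enrichment of the strongest promoter peak of each gene (vertical axis, fold as deposited) in the thresholded lists (filled circles), the less strict lists (open circles) and, for genes that are not open, the combined list (diamonds); crosses at 0 mark a replicate with no peak in its own lists. Runx1 and Ikzf1 have filled circles in both replicates, and the open circles of Ebf1, at 5.16 and 5.27, lie above the filled circles of Ikzf1.

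Runx1 (ENSMUSG00000022952.17, chr16:92601466-92826149, minus strand) encodes the DNA-binding subunit of core binding factor, which is needed for the first blood stem cells to form and later for megakaryocytes. The gene is 224.7 kb long and is known to use a distal promoter at its 5′ end and an internal promoter downstream of it, and both were open. At the distal promoter the thresholded peak had an enrichment of 4.80 in replicate 1 and 4.69 in replicate 2 (4.74 ± 0.0793, SD, n = 2), with its summit at the start site. A neighbouring peak 0.51 and 0.50 kb downstream of a start site reached 4.10 and 4.50 (4.30 ± 0.287, SD, n = 2). At the internal promoter, 128.8 kb into the gene at the start of its shorter transcripts, a summit 0.09 and 0.08 kb upstream of the start had an enrichment of 6.36 and 6.62. The strongest summit lay 1.47 and 1.48 kb upstream of that start, at 7.39 in replicate 1 and 7.70 in replicate 2 (7.55 ± 0.216, SD, n = 2). Replicate 1 holds both of these summits in an interval of 1891 bp, and replicate 2 splits it into 2 intervals. The internal promoter therefore had the higher values in each replicate, by either summit. The remaining 2 start sites, 130.0 and 130.7 kb into the gene, lay over 1 kb from any thresholded peak. With the strongest summit, Runx1 exceeded 20.8% and 22.7% of all 9083 open promoters in replicates 1 and 2.

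Within the first intron of Runx1, between both promoters, is a known enhancer of blood stem cells, and 4 shared distal peaks lay in introns of the gene. A peak is called shared when replicate 1 and replicate 2 thresholded peaks overlap, and distal when it lies over 1 kb from every annotated start site of any gene. The strongest was 24.4 kb into the gene, at 9.41 and 9.98 (9.69 ± 0.400, SD, n = 2), followed by a peak at 61.2 kb with 8.87 and 9.46 (9.16 ± 0.413, SD, n = 2). The peak at 110.4 kb had 5.56 and 5.80, and the peak at 3.9 kb had 3.47 and 3.56. The peaks at 24.4 and 61.2 kb exceeded the strongest promoter summit in both replicates, and the others did not. No shared peak lay in the 50 kb before or after the gene. The sequences around the internal promoter's strongest summit and the 3 strongest distal intronic summits are shown to set that summit beside the distal sites. Each is 151 bp of the mm10 plus strand, which is the strand opposite to the transcript, and capitals mark GATA motifs on either strand.
Runx1 upstream of the internal promoter, chr16:92698721-92698871: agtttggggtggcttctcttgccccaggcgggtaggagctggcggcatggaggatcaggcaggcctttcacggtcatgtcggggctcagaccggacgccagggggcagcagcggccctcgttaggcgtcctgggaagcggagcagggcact
Runx1 intron 24.4 kb, chr16:92801626-92801776: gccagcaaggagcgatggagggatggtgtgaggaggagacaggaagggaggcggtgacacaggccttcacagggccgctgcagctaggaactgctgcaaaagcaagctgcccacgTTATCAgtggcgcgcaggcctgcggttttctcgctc
Runx1 intron 61.2 kb, chr16:92764871-92765021: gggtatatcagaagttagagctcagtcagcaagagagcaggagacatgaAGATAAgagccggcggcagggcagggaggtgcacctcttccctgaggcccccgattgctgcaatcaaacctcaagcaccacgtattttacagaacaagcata
Runx1 intron 110.4 kb, chr16:92715641-92715791: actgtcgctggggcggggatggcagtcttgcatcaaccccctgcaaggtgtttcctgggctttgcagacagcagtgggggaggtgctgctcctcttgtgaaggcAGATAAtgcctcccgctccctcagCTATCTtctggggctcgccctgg
The 3 intronic sequences hold 1, 1 and 2 GATA motifs in this order. The sequence upstream of the internal promoter, whose summit lies 1.47 kb from the start, holds none. Among the sites not shown, the open peak 0.51 kb downstream of a start site at the distal promoter holds 1 GATA motif. The shared intronic site at 3.9 kb holds none, so the motif does not separate promoter from distal sites in Runx1.

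Ikzf1 (ENSMUSG00000018654.17, chr11:11685003-11772926, plus strand) encodes Ikaros, a zinc finger factor that lymphoid development requires and that is also present in erythroid progenitors. Its promoter was open but weak, with an enrichment of 4.05 in replicate 1 and 4.32 in replicate 2 (4.19 ± 0.196, SD, n = 2) and a −log10 p of 16.55 and 19.91. These values rank 16833 of 17777 and 17360 of 18837 thresholded peaks, and they exceeded 0.694% and 1.01% of open promoters. The peak covers the outermost 5′ start site of Ikzf1, and a start of the gene Gm11999 also lies within 1 kb. The start site 1.4 kb into Ikzf1 lies 1.20 and 1.21 kb from the peak in the 2 replicates.

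The window of Ikzf1, its body and 50 kb either side, held 8 shared distal peaks, and each of the 8 exceeded the promoter of Ikzf1 in both replicates. An open promoter with at least 1 such stronger distal peak in its window was found for 20.2% of open protein-coding genes, Runx1 and Ikzf1 among them. The strongest lay in an intron 57.9 kb into the gene, at 9.49 and 10.43 (9.96 ± 0.665, SD, n = 2). Beyond the 3′ end, the peak 103.6 kb from the 5′ end had 6.98 and 9.07 (8.03 ± 1.48, SD, n = 2), the widest ratio between replicates among the shared peaks of the 10 windows. A further peak at 135.4 kb had 7.22 and 6.99 (7.11 ± 0.166, SD, n = 2). The other 5 had means of 6.48 (44.4 kb), 6.00 (48.4 kb), 5.73 (27.7 kb upstream), 5.50 (131.0 kb) and 4.59 (127.1 kb). The peaks beyond the 3′ end lie near Fignl1, a gene of DNA repair, whose promoter at 124.0 kb was open with 8.99 and 8.54. Which gene a distal peak acts on cannot be read from these data. The promoter sequence is shown for contrast with the strongest intronic summit and the strongest distal summit beyond the gene, each on the mm10 plus strand, with GATA motifs in capitals.
Ikzf1 promoter, chr11:11684857-11685007: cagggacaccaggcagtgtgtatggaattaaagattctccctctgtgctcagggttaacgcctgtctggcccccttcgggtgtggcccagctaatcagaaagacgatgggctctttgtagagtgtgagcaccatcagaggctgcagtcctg
Ikzf1 intron 57.9 kb, chr11:11742843-11742993: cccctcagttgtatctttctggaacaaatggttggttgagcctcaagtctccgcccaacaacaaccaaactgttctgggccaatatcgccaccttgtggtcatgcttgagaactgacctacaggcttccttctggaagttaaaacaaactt
Ikzf1 downstream 103.6 kb, chr11:11788555-11788705: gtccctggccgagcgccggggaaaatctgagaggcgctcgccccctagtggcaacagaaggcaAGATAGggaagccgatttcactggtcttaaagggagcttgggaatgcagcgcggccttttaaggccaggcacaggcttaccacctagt
The intronic site holds 1 E-box, 1 RUNX and 1 ETS motif and no GATA motif, and the downstream site holds 1 GATA and 1 CTCF motif.

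Spi1 (ENSMUSG00000002111.8, chr2:91082390-91115756, plus strand) encodes PU.1, the ETS factor of myeloid and B cells. None of its 4 start sites had a promoter peak in any list, yet the window of 133.4 kb held 4 shared peaks. The intronic peak 19.2 kb into the gene had an enrichment of 9.03 in replicate 1 and 7.66 in replicate 2 (8.34 ± 0.964, SD, n = 2) and lay 4.82 kb from the nearest Spi1 start site. Another distal peak, 21.4 kb upstream of the 5′ end, had 7.36 and 6.91 (7.14 ± 0.317, SD, n = 2). The other shared peaks were at start sites of neighbours: Psmc3, a proteasome subunit gene, 28.4 kb upstream with 12.96 and 12.49, and Slc39a13, a zinc transporter gene, 11.7 kb upstream with 7.54 and 6.77. An upstream regulatory element is known before the main Spi1 promoter. The annotation places the 5′ end 13.7 kb before an internal start site of the gene. In that stretch only the combined list had a peak, 5.8 kb into the gene, at 2.67. The known element was not located in these coordinates, so this peak is not a reading of it. The upstream distal peak lies between the peaks of Psmc3 and Slc39a13, and which gene either distal peak acts on cannot be read from these data. Both distal summits are shown because they are the shared distal sites in the window of a gene whose promoter is closed. Each sequence is of the mm10 plus strand with GATA motifs in capitals.
Spi1 upstream 21.4 kb, chr2:91060901-91061051: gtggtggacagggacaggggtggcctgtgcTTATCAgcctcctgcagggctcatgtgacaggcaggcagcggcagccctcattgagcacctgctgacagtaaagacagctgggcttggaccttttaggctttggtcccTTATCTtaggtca
Spi1 intron 19.2 kb, chr2:91101520-91101670: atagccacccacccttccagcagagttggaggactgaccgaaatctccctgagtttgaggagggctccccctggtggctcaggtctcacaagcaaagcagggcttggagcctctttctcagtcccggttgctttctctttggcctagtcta
The upstream site holds 2 GATA motifs and 2 E-boxes, and the intronic site holds no exact match to any of the 11 motifs searched. Near matches were not counted.

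**Figure D2:**
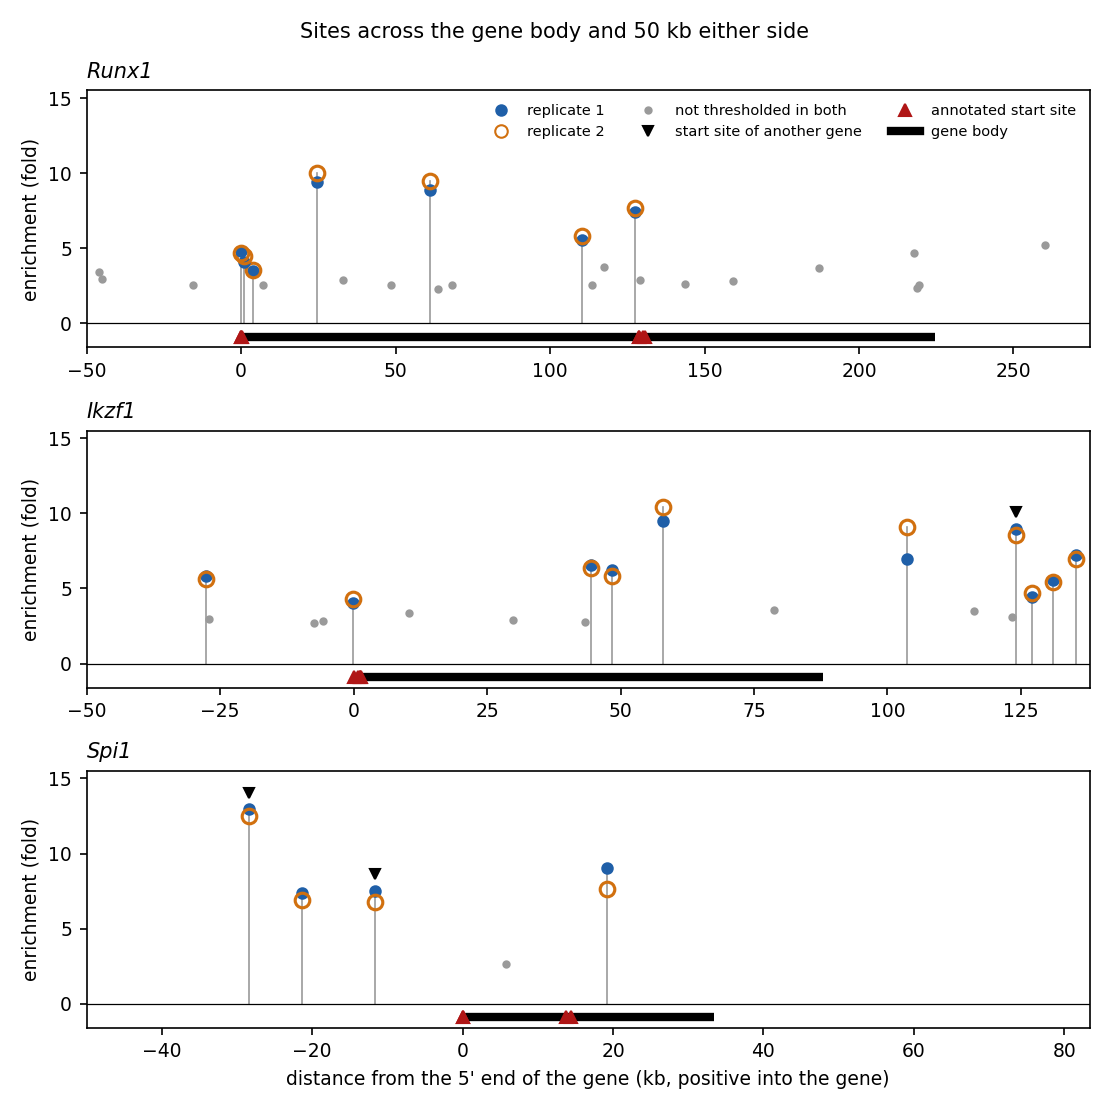
Enrichment (vertical axis, fold) of each site by distance from the gene's 5′ end (horizontal axis, kb, positive in the direction of transcription) over the windows of Runx1, Ikzf1 and Spi1, with replicate 1 as filled and replicate 2 as open circles, and sites that are not thresholded in both replicates as small grey dots. Black triangles mark peaks at the start site of another gene, red triangles the annotated start sites, and the black bar the gene body; the promoter of Ikzf1 is its lowest shared peak and Spi1 has no circle at its start sites.

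Ebf1 (ENSMUSG00000057098.14, chr11:44617317-45008091, plus strand) encodes early B cell factor, which specifies the B lineage. Its promoter peak was in the less strict lists only, at 5.16 in replicate 1 and 5.27 in replicate 2, with a −log10 p of 10.04 and 10.97. The enrichment is higher than that of the open Ikzf1 promoter in each replicate, and the −log10 p is lower. It exceeded 74.5% and 75.4% of the 690 relaxed-only promoters. The series-level conservative list holds it at 5.70, and the series-level thresholded list does not hold it. The gene Gm37695 has a start site within 1 kb of the same peak. A peak 35.8 kb upstream was thresholded in replicate 1 alone, at 8.37, and in the less strict list of replicate 2 it had 8.40. Further peaks of both less strict lists lay 31.1 kb upstream at 5.60 and 6.13, where 4930597A21Rik starts, and 10.3 kb upstream at 3.59 and 4.64. All 4 sites of the Ebf1 window, which spans 490.8 kb, thus lay at or upstream of the 5′ end and none in the remainder of the gene body. The promoter sequence is shown because its peak is the only relaxed-only promoter in both replicates among the 10 genes (mm10 plus strand, GATA motif in capitals).
Ebf1 promoter, chr11:44617179-44617329: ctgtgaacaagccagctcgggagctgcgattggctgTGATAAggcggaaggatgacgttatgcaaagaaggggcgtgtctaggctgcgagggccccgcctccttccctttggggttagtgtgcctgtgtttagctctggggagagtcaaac
It holds 1 GATA, 1 ETS and 1 C/EBP motif.

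Etv6 (ENSMUSG00000030199.16, chr6:134035700-134270158, plus strand), an ETS repressor needed in stem cells and platelet formation, had a less strict promoter peak of 3.26 in replicate 2 and none in replicate 1. The combined list holds it at 2.96. The rest of its window of 334.5 kb held 1 further site, in an intron 95.4 kb into the gene, in the combined list alone. Runx3 (ENSMUSG00000070691.10, chr4:135120652-135177990, plus strand), a factor of CD8 T cells and NK cells, had no peak at its 5′ start site. A combined-list peak of 2.11 lay at the internal start sites, 31.8 to 33.8 kb into the gene. It had 3 sites thresholded in 1 replicate each, and all 3 were in the less strict lists of both. The site 30.0 kb into the gene had 4.28 and 4.87, the site at 85.9 kb 6.27 and 7.0, and the site at 99.2 kb 6.26 and 5.25, in replicates 1 and 2. The last of these was thresholded in replicate 1 and the others in replicate 2.

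Cebpa, Irf8, Erg and Pax5 were closed in every list. Cebpa (ENSMUSG00000034957.10, chr7:35119293-35121928, plus strand), the granulocyte factor, is 2.6 kb long, and its window held 3 sites, all outside the gene. The site 50.3 kb from its 5′ end had 6.78 and 5.74 in the less strict lists of replicates 1 and 2. The series-level thresholded and conservative lists also hold it, at 6.98. The sites at 8.0 and 8.6 kb were in 1 replicate each, at 4.40 in replicate 1 and 3.18 in replicate 2. Cebpg, its neighbour and a family member, was open, and its promoter is the nearest shared peak upstream of Cebpa, at 62.2 kb. Irf8 (ENSMUSG00000041515.10, chr8:120736358-120756694, plus strand), the monocyte and dendritic cell factor, had no site in either replicate's own lists. The combined list holds 3 sites in its window, at 3.72, 2.46 and 3.81. Erg (ENSMUSG00000040732.20, chr16:95359169-95586593, minus strand), an ETS factor of stem cells, had 3 sites in the less strict list of replicate 2, at 3.64, 2.72 and 4.01, all outside the gene, and none in replicate 1. None of its 6 start sites, which spread over 127.3 kb, had a peak. Pax5 (ENSMUSG00000014030.15, chr4:44524757-44710487, minus strand), the factor that commits cells to the B lineage, had 1 intronic site 145.7 kb into the gene, in the less strict list of replicate 1 at 3.87. The shared peak of its window is the promoter of Zcchc7, 46.1 kb upstream, with 11.58 and 12.51 (12.0 ± 0.658, SD, n = 2).

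Over the windows of all 10 genes there were 75 sites, of which 22 were shared, 4 were thresholded in 1 replicate, 28 were in the less strict lists only and 21 in the combined list only. Of the 22 shared sites, 4 were at the promoters of Runx1 and Ikzf1, 8 inside a gene and 10 outside, and 4 of these 10 were at start sites of other genes. Distal sites numbered 14, with 8 at Ikzf1, 4 at Runx1 and 2 at Spi1. At least 4 shared distal peaks in the window were found for 5.37% of protein-coding genes, and 2 of the 10 genes reach that number. The 8 of Ikzf1 were matched or exceeded by 0.328% of genes, and the 2 of Spi1 by 18.6%. Longer genes have longer windows, so the density of all shared peaks, those at start sites included, is given as well. Of the shared peaks, 8 of 10 were distal at Ikzf1, 2 of 4 at Spi1, 4 of 7 at Runx1 and 0 of 1 at Pax5. The density of distal peaks alone was not computed. Shared peaks per 100 kb numbered 5.32 at Ikzf1, 3.00 at Spi1, 2.16 at Runx1, 0.350 at Pax5 and 0 at the other 6, beside a median of 0.980 and an upper quartile of 2.96 over all protein-coding genes. Cebpa, Irf8, Etv6 and Erg, 4 of 10, had no thresholded peak of either replicate in the window, which held for 31.6% of protein-coding genes.

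**Figure D3:**
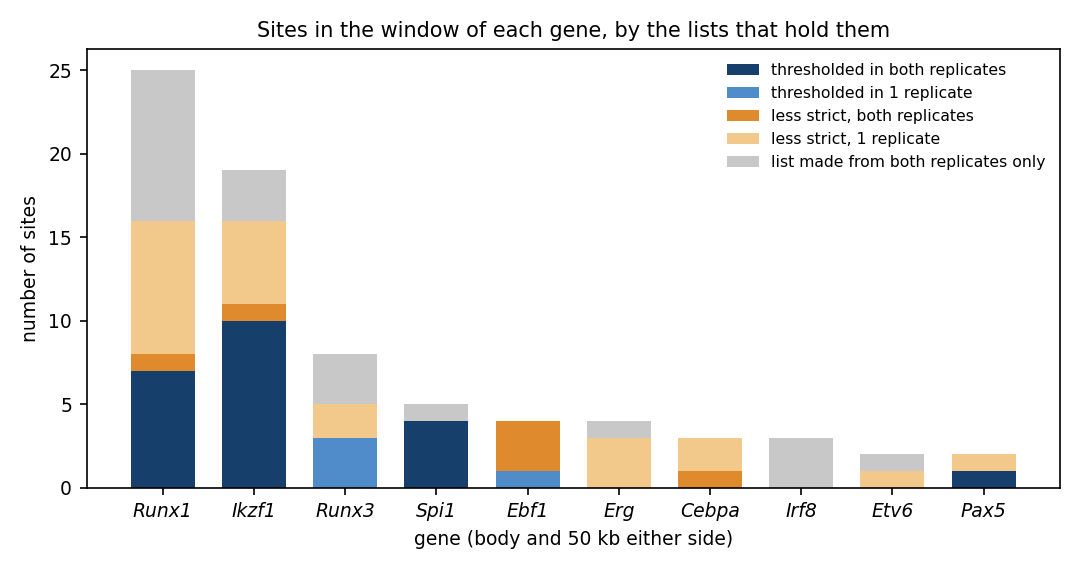
Number of sites in the body and 50 kb either side of each gene (vertical axis), stacked by the lists that hold them. Ikzf1 has 10 and Runx1 7 sites thresholded in both replicates, Spi1 has 4 and Pax5 1, and the other 6 genes have none.

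The replicates gave close values at the 22 shared sites. The larger value divided by the smaller was between 1.02 and 1.30, with a median of 1.06, and each replicate was the higher at 11 sites. Beyond the windows, Etv6, Ebf1 and Erg lay in long stretches with no shared peak, of 1432.8, 1275.6 and 1206.3 kb. Stretches of over 1 Mb hold 21.0% of protein-coding genes, beside these 3 of 10. The stretch around Pax5 measured 454.5 kb, that of Runx3 204.4 kb, that of Cebpa 177.2 kb and that of Irf8 149.5 kb.

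The 75 bp either side of the summit were searched for motifs on both strands, at the 14 distal sites and at all 6181 shared distal sites of the genome. A GATA motif (AGATAA or AGATAG or TGATAA or TGATAG), the letters that GATA1 recognises, was present at 9 of the 14 sites (64.3%, 95% Wilson interval 38.8 to 83.7) and at 48.3% of all shared distal sites. At this window the interval includes the share of all sites. Within 100 bp the motif was at 12 of 14 sites (85.7%) beside 52.4% of all, and no interval was computed there, so the reading depends on the window. The 9 were at Ikzf1 (5 sites), Runx1 (3 sites) and Spi1 (1 site). All 14 sites lie in the windows of these 3 genes, 8 of them at Ikzf1, and they are part of the 6181. The Wilson intervals treat the sites as independent. An E-box (CAGNTG), bound by TAL1 with its partners, was at 4 of 14 and at 44.8% of all. The RUNX motif (TGTGGT) was at 3 of 14 and 14.2% of all, and the site 3.9 kb into Runx1 holds 3 copies of it. The ETS motif (CGGAAG or AGGAAG) was at 3 of 14 and 22.3% of all. The longer PU.1 motif (GAGGAAG), which overlaps the ETS motif, was at none of the 14 and 5.53% of all, where 0 of 14 has an upper Wilson limit of 21.5%. The motifs for C/EBP (TTGCNNAA, 4.76% of all), IRF (GAAANNGAA, 2.62%), EBF (CCCNNGGG, 4.74%) and AP-1 and NFE2 (TGANTCA, 9.63%) were also at none. The CACCC motif (CCNCNCCC), bound by KLF1, was at 2 of 14 and 27.2% of all. The CTCF motif was at 2 of 14, both downstream of Ikzf1 at 103.6 and 135.4 kb, and at 10.1% of all. A match is a description of the letters and not evidence that a factor binds.

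**Figure D4:**
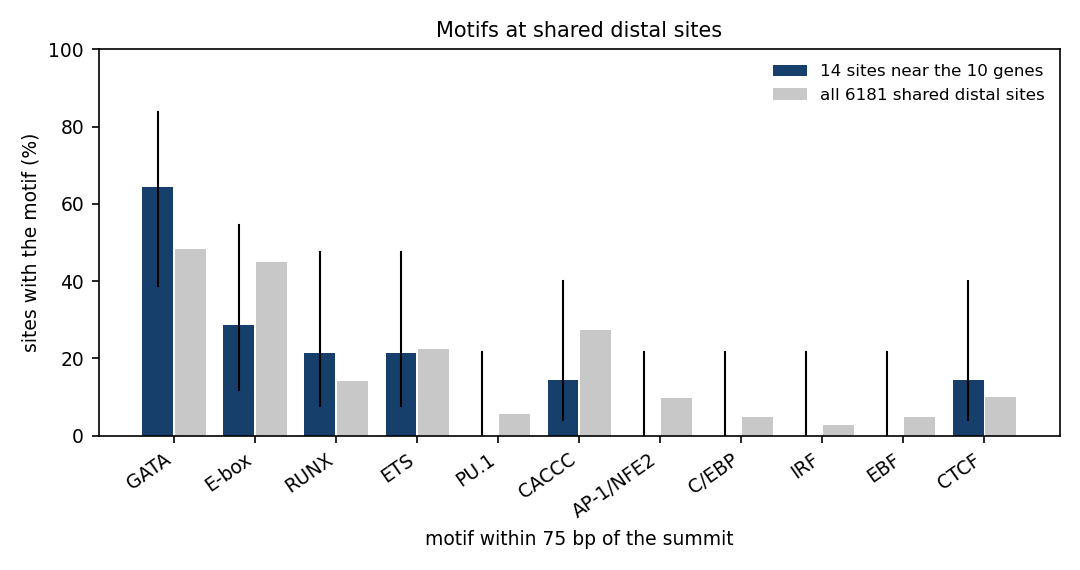
Share of sites (vertical axis, %) with each motif within 75 bp of the summit (horizontal axis), for the 14 shared distal sites near the 10 genes (dark bars, with 95% Wilson intervals as lines) and for all 6181 shared distal sites (grey bars). For GATA the bars stand at 64.3% and 48.3%, and PU.1, AP-1/NFE2, C/EBP, IRF and EBF have no dark bar.

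CpG-rich promoters are open in many cell types, and the 10 genes were placed by the ratio of observed to expected CpG within 1 kb of the 5′ end. Cebpa (0.88) and Etv6 (0.83) fall in the richest decile of protein-coding genes, where 73.9% of promoters were open, and neither was open. Irf8 (0.66) and Ikzf1 (0.68) share decile 8, with 68.2% open, and of the pair Ikzf1 was open. Runx1 (0.34) and Runx3 (0.30) share decile 4, with 18.3% open, and of the pair Runx1 was open. Spi1 (0.18) falls in decile 3, where 11.9% were open. Ebf1 falls in decile 7 (65.6% open), Pax5 in decile 6 (57.2%) and Erg in decile 5 (38.4%). The ratio describes the 5′ end only and not the internal promoters of Runx1, Runx3 and Erg. Nor does it describe the Spi1 start sites 13.7 and 14.4 kb into that gene.

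**Figure D5:**
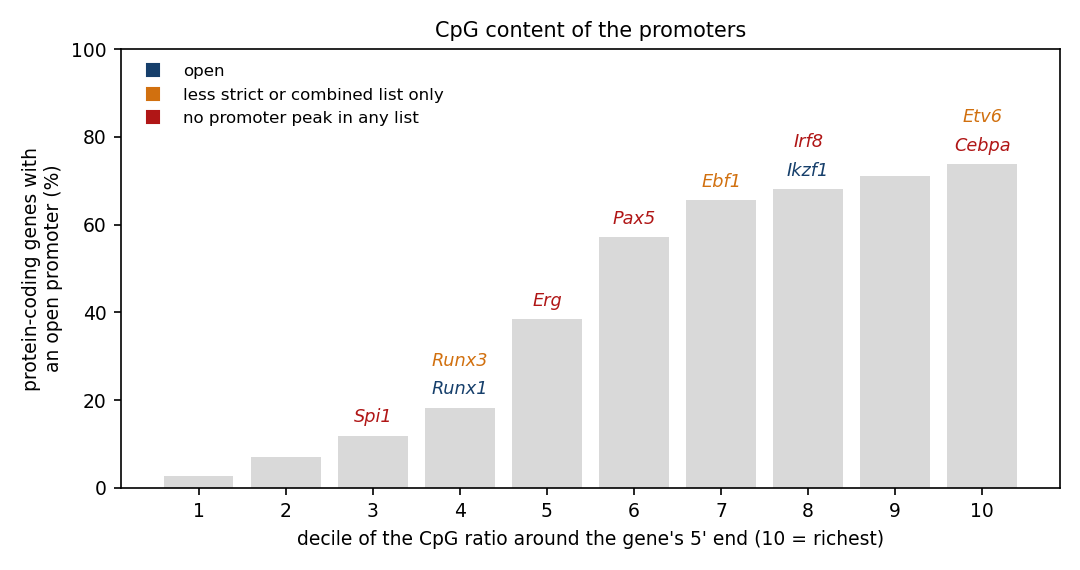
Share of protein-coding genes with an open promoter (vertical axis, %) by decile of the CpG ratio at the 5′ end (horizontal axis, 10 the richest), with each of the 10 genes written above its decile and coloured by its promoter state. Cebpa and Etv6 stand in decile 10, where 73.9% of genes were open, and Runx1 in decile 4, where 18.3% were open.

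Chosen other genes of the same families, with RUNX partner genes, were counted by the same rule, beside 41.4% of all protein-coding genes with an open promoter. Not every family member was counted. Of 13 listed ETS genes 6 were open, led by Elk1 (13.0 ± 1.94, SD, n = 2), Gabpa (11.0 ± 0.388) and Ets1 (9.82 ± 0.678). Of 5 genes listed as RUNX partners and paralogs 3 were open: Cbfa2t2 (12.4 ± 0.381, SD, n = 2), Runx1t1 (10.9 ± 0.454) and Cbfa2t3 (3.78 ± 0.301). These 3 are corepressor genes and not RUNX paralogs. Runx2 and Cbfb, the gene of the partner subunit of RUNX1, had no promoter peak in the lists analysed here, which does not show that they are inaccessible. In the IRF family 4 of 8 were open, with Irf3 (8.83 ± 0.0149), Irf9 (8.38 ± 0.0381) and Irf7 (7.48 ± 0.651, SD, n = 2) the highest, and these act in the interferon response. The shares of the listed ETS (46.2%) and IRF genes lie near that of all genes. Of 4 CEBP genes Cebpg was open (11.2 ± 0.0147, SD, n = 2), and of 4 Ikaros genes Ikzf5 (13.7 ± 0.487, SD, n = 2). Cebpb was thresholded in replicate 1 alone at 4.11, with 3.44 in the less strict list of replicate 2, at a peak where Tmem189 also starts. Cebpd (2.67 and 3.67) and Ikzf2 (3.94 and 3.55) were relaxed only. So were Elf4 (7.78 and 8.96) and Etv3 (4.42 and 3.49) of the ETS family, and Irf1 (4.53 and 2.90). The peaks of Gabpa, Irf3, Cebpg and Ikzf5 also lie at a start of another gene, which is Atp5j, Bcl2l12, Gm45095 and Acadsb in this order. None of 5 listed EBF and PAX paralogs was open. Beside these, the 9 erythroid regulators that oppose or partner with the genes described were open in 9 of 9 cases. Among them Ldb1 (6.77 ± 0.122, SD, n = 2), Nfe2 (6.34 ± 0.155) and Klf1 (5.87 ± 0.0188) were the highest.

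Genes known as targets of the 10 factors in their own lineages were counted in the same way, beside 41.4% open and 48.5% closed among all protein-coding genes. The open share ran from 2.60% in the CpG-poorest decile to 73.9% in the richest. The CpG content of these targets and of the family genes above was not taken into account. Of 10 myeloid targets 0 were open and 8 closed. Csf2ra, a cytokine receptor gene, was thresholded in replicate 2 alone at 4.01 and had 4.47 in the less strict list of replicate 1, and Ctss had 3.39 in the less strict list of replicate 2. Of 8 B lineage targets Vpreb1 was open (10.9 ± 0.536, SD, n = 2), at a peak that is also the start of Top3b, a topoisomerase gene. Blnk, an adaptor of B cell receptor signalling, was relaxed only, at 4.46 and 3.99, and the other 6 were closed. All 6 T and NK cell targets were closed. Of 6 megakaryocyte targets, Gp1ba (7.72 ± 0.0390, SD, n = 2) and Itga2b (7.49 ± 0.304) were open, which encode platelet adhesion receptors, and Gp9 was relaxed only at 2.25 and 2.97. Cells of other lineages in the preparation and a low level of opening in every cell cannot be told apart in these lists.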

How the data were processed

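ATAC-seq peak lists of 2 erythroblast replicates were used. Per the labels, coordinates are in mm10 and are printed counting from 1. The aligner and the peak caller remain not given in the sources used here. Per the file listings each replicate has its own lists, thresholded by irreproducible discovery rate or pseudoreplicated (here less strict), and the series-level thresholded, conservative and replicated (here combined) lists derive from both replicates. A line of the deposited lists holds a summit, its enrichment, a fold or ratio as computed by the authors, a −log10 p, and a score of at most 1000. Enrichment was compared within a list; means and SDs over the 2 replicates are descriptions and were not tested.

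Intervals repeated for several summits counted once, by their strongest summit, on chromosomes 1 to 19, X and Y. Overlap was at least 1 bp. Start sites came from GENCODE M21 and sequence from GRCm38.p6, by symbol and coordinates. Wilson intervals cover counting error only. Replicate 2's label lists more than 1 instrument model and replicate 1's none, and an effect of this cannot be told apart from other differences between replicates. Python 3.11.15, numpy 2.4.6, scipy 1.17.1 and pysam 0.24.0 were used, and the overlap functions were tested on simulated data. Closed means no line in the lists analysed here, which may not hold every line of the originals.

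The genes, lists and windows were chosen with earlier results of these data known. Named are the 10 genes, the 3 open genes with the highest mean enrichment of each companion list with genes that stand apart in state, and per gene the promoter peak and up to 3 distal sites; the remaining sites were named after their values were seen. Alternatives covered promoter width, start sites, lists, overlap, flank, motif window and leaving out a replicate.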

Additional observations from a re-analysis of the deposited data

How the results depend on the processing

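Counts within 1.5 times the reported one, and other values within the SD of the replicates or the 95% interval of the share, were taken as unmoved; 44 alternative values were within these limits and 6 were not. Within them, the shared peaks went from 22 to 31 with the series-level thresholded list and to 33 with the conservative one, and the distal peaks from 14 to 21 with either. With a minimum enrichment of 5 the open promoters went from 2 to 1, and Ikzf1 was the one lost. The relaxed-only count ranged from 1 to 2 when a replicate was left out (2 without replicate 1, with Etv6 added), and it was 3 with the combined list, with Etv6 and Runx3 added. A flank of 100 kb raised the shared peaks from 22 to 36. The share of distal sites with a GATA motif was 85.7% within 100 bp of the summit, where all shared distal sites had 52.4%, beside 64.3% and 48.3% within 75 bp. Restricted to summits within 1 kb of a start site, a choice made after seeing the data, the enrichment of the Runx1 promoter was 6.49 in place of 7.55. The closed count was 5 or 6 under the alternatives of promoter width, start sites, summit, left-out replicate and combined list, and with the 5′ end alone the sixth was Runx3. With the series-level conservative list 3 promoters were open, Ebf1 added. No paired analysis was possible because the series has 1 group. The unknown depth limits what the absence of a peak shows.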
